A study of Mus musculus with 6 samples.

Results

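The genes of the mitochondrial respiratory chain were taken from the expression table by symbol. They comprised the Nduf subunits of complex I, Sdha to Sdhd of complex II, the Uqcr genes of complex III, the Cox4 to Cox8 genes of complex IV and the Atp5 genes of complex V, with the Ndufaf assembly factors left out. This rule used no measured value and matched 84 of the 23913 genes with a usable symbol, and 82 of the 84 averaged 1 FPKM or more across the libraries. FPKM, the unit of all levels here, counts sequenced fragments per kilobase of a gene's transcript, relative to the number mapped in that library. Of the 84 genes, 73 encode the common form of a subunit (35 of complex I, 4 of complex II, 8 of complex III, 11 of complex IV and 15 of complex V), 3 encode the form found in skeletal muscle and heart (Cox6a2, Cox7a1 and Cox8b), 5 encode other tissue forms (Ndufa4l2, Cox4i2, Cox6b2, Cox7b2 and Cox8c), and 3 are related genes (Cox7a2l, Atp5s and Atp5sl).

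The respiratory chain sits in the inner mitochondrial membrane. Complexes I and II pass electrons from NADH and succinate to ubiquinone, complex III passes them on to cytochrome c, and complex IV, cytochrome c oxidase, hands them to oxygen. Complexes I, III and IV pump protons, and complex V, the ATP synthase, uses the returning protons to make ATP. The symbols here are those of nuclear genes, and for a few small subunits of cytochrome c oxidase the nucleus holds a separate gene that is used in striated muscle.

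RNA came from skin excised around full-thickness incisional wounds on the backs of young adult female C3H mice (the C3Hf/Kam line by the methods), in 2 arms. In the first, vemurafenib, an inhibitor of mutant BRAF, was applied to the wound every other day as a suspension in DMSO and PBS, and skin was taken on day 2, 6 or 14; in the second, DMSO in PBS was applied on the same schedule and skin was taken on the same days. The labels call the control wounds untreated and the reads single-end, whereas the methods name the vehicle and paired-end reads. There was 1 sample with 1 column for each arm and day, taken here as 1 library. The number of mice or libraries behind a column is not stated in the sources used here. A difference between the arms on 1 day therefore has no replicate check, and no p-value is given for it.

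FPKM carry no read number, so that library depth is unknown. The number of genes at 1 FPKM or more was between 12746 and 13062 per library. The digits of 4 columns are those of averaged values, unlike those of the vemurafenib column of day 2 and the vehicle column of day 14. On days 2 and 14 the arms thus also differed in the form of their columns. Markers of the labelled tissue were present, the summed FPKM of 6 basal keratinocyte genes lying between 3207 and 13229. Markers of skeletal muscle fibres were also abundant, with 17 of 18 past a mean of 1 FPKM and a summed level between 2453 and 30650.0 FPKM. Ucp1, the uncoupling protein of brown fat, was below 0.1 FPKM in every library. Of the 4 heart markers, Myh6 was also below 0.1 FPKM throughout and Nppa between 0.061 and 0.317, whereas Tnni3 lay between 0.297 and 1.84 and Tnnt2 between 5.37 and 68.5 FPKM. In whole skin, fewer cells of a type and less RNA per cell cannot be told apart.

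Respiratory chain genes were among the abundant genes of the wounds, with a median between 161 and 333 FPKM per library. The median over all genes that averaged 1 FPKM or more was 9.07 to 10.3 FPKM. Together the 84 genes made up between 2.62% (vehicle, day 14) and 4.29% (vehicle, day 2) of the summed FPKM of a library. The ATP synthase subunit Atp5k had the highest mean of all the common forms, with 1752 FPKM with vemurafenib and 2232 FPKM with vehicle on day 2, 1243 with vemurafenib and 1366 with vehicle on day 6, and 1406 with vemurafenib and 729 with vehicle on day 14. Cox6c, a small subunit of cytochrome c oxidase, headed complex IV at 1401 FPKM with vemurafenib and 1431 FPKM with vehicle on day 2, 988 with vemurafenib and 1031 with vehicle on day 6, and 1197 with vemurafenib and 748 with vehicle on day 14. Both genes were lowest in the vehicle library of day 14, and both differed between the arms by less than 2-fold on each day.

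Within the other complexes the order of levels was as follows. Ndufa3, an accessory subunit, had the highest mean of complex I, with 679 FPKM with vemurafenib and 1133 FPKM with vehicle on day 2, 578 with vemurafenib and 631 with vehicle on day 6, and 679 with vemurafenib and 365 with vehicle on day 14. Ndufs1, the largest iron-sulphur subunit, had the lowest mean, with 33.5 FPKM with vemurafenib and 25.6 FPKM with vehicle on day 2, 34.7 with vemurafenib and 25.9 with vehicle on day 6, and 30.7 with vemurafenib and 41.3 with vehicle on day 14. Ndufa3 was above Ndufs1 in every library.

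In complex III, Uqcrq had the highest mean, with 1039 FPKM with vemurafenib and 1172 FPKM with vehicle on day 2, 603 with vemurafenib and 603 with vehicle on day 6, and 796 with vemurafenib and 384 with vehicle on day 14. The lowest was Uqcrc2, a core subunit, with 78.1 FPKM with vemurafenib and 59.4 FPKM with vehicle on day 2, 77.9 with vemurafenib and 63.4 with vehicle on day 6, and 76.2 with vemurafenib and 100.3 with vehicle on day 14. Complex II, which has 4 subunits and is shared with the citric acid cycle, had the lowest median FPKM of the 5 complexes in every library. Its members ran from the iron-sulphur subunit Sdhb, with 144 FPKM with vemurafenib and 144 FPKM with vehicle on day 2, 151 with vemurafenib and 136 with vehicle on day 6, and 197 with vemurafenib and 143 with vehicle on day 14, to the flavoprotein Sdha, with 57.9 FPKM with vemurafenib and 49.6 FPKM with vehicle on day 2, 59.9 with vemurafenib and 47.5 with vehicle on day 6, and 57.2 with vemurafenib and 60.0 with vehicle on day 14. Among the common forms of complexes IV and V the lowest means were those of Cox7b, between 113 and 174 FPKM, and Atp5f1, between 156 and 224 FPKM.

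The muscle forms of cytochrome c oxidase had the highest ratios of vemurafenib to vehicle among the 82 genes on days 6 and 14. These are Cox6a2 (mm9 chr7:135348950-135349880, minus strand), Cox7a1 (chr7:30969190-30971047, plus strand) and Cox8b (chr7:148084842-148086345, minus strand), all on chromosome 7. Each has a common partner elsewhere that encodes the same subunit in most tissues. The partners are Cox6a1 (chr5:115795651-115798990, minus strand), Cox7a2 (chr9:79603048-79607660, minus strand) and Cox8a (chr19:7289648-7292106, minus strand). Cox7a1 and Cox8b are also known to be abundant in brown fat.

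Because muscle and common forms of the same subunit had different courses, the promoter windows of 2 such pairs are shown, from 250 bases before to 50 bases after the annotated start, as given by RefSeq for GRCm38.p6. Of the 84 genes, 69 had a window in that table. Capitals mark matches, on either strand, to CCGGAAG (the ETS motif of GABPA, shown as CTTCCGG where it lies on the other strand), CAGCTG (the E box of MyoD and myogenin) and TATAAA (the TATA box); the NRF1 motif (GCGCA, then any base, then GCGC), AAGATGGC (YY1) and the MEF2 motif were also searched, and no match in these windows overlaps another. The order is Cox8b (chr7:140900397-140900696, minus strand), Cox8a (chr19:7217567-7217866, minus strand), Cox7a1 (chr7:30183921-30184220, plus strand) and Cox7a2 (chr9:79759804-79760103, minus strand).
Cox8b: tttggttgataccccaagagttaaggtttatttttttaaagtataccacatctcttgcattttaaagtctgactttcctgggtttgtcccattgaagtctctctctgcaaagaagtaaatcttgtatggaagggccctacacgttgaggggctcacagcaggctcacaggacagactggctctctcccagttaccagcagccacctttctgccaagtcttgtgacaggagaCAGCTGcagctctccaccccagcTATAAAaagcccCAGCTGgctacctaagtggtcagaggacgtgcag
Cox8a: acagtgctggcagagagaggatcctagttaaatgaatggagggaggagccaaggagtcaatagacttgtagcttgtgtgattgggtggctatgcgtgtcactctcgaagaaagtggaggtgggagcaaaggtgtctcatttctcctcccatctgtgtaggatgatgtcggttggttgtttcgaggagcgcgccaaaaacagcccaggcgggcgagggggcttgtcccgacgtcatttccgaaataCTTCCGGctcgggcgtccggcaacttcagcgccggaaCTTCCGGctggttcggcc
Cox7a1: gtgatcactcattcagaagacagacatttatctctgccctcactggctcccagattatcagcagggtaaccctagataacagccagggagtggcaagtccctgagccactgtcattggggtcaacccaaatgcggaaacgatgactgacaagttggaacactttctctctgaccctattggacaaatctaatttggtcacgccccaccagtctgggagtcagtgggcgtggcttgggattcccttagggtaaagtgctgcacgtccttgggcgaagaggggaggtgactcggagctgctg
Cox7a2: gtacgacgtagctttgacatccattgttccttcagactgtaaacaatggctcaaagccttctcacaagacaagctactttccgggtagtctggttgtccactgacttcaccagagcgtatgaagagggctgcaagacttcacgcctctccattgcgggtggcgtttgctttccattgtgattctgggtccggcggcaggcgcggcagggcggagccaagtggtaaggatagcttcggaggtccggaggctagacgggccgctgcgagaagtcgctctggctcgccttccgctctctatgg

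The window of the muscle form Cox8b held 2 E boxes and 1 TATA box, and that of its common partner Cox8a held 2 ETS motifs. In Cox8b the TATA box match (bases 4 to 9) and 1 E box (bases 16 to 21) lay after the annotated start. The other E box lay before it (bases -19 to -14). In Cox8a 1 of the ETS motifs lay after the start (bases 32 to 38). The windows of Cox7a1 and Cox7a2 held none of the 6 motifs, which says only that these letters were not in these windows. Over the common forms, 38 of 67 windows (56.7%) held an ETS, NRF1 or YY1 match, compared with 14.7% of all 32851 windows in the table and 26.2% of the 13158 windows of genes that averaged 1 FPKM or more. NRF1, whose name stands for nuclear respiratory factor, matched in 26.9% of the common forms' windows and in 4.60% of all windows. The ETS motif matched in 23.9% and 8.86%, and YY1 in 14.9% and 2.75%. In the windows of genes that averaged 1 FPKM or more, NRF1 matched in 9.07%, the ETS motif in 16.3% and YY1 in 4.10%. All 3 percentages of the common forms were above those of both sets, by less when set beside this second one. The E box was found in 7.46% of the common forms' windows, compared with 16.3% of all windows and 15.7% of those of genes that averaged 1 FPKM or more. The ETS and NRF1 motifs are rich in G and C, and base composition was not matched between these sets of windows.

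Cox6a2 had 302 FPKM with vemurafenib and 408 FPKM with vehicle on day 2, 159 with vemurafenib and 91.9 with vehicle on day 6, and 89.2 with vemurafenib and 27.9 with vehicle on day 14. Cox8b had 451 FPKM with vemurafenib and 452 FPKM with vehicle on day 2, 209 with vemurafenib and 139 with vehicle on day 6, and 156 with vemurafenib and 41.7 with vehicle on day 14. Cox7a1 had 124 FPKM with vemurafenib and 133 FPKM with vehicle on day 2, 79.0 with vemurafenib and 30.7 with vehicle on day 6, and 60.3 with vemurafenib and 13.8 with vehicle on day 14. All 3 were lower on each later day in both arms, and on days 6 and 14 the vemurafenib library lay above the vehicle library for each of them.

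**Figure D1:**
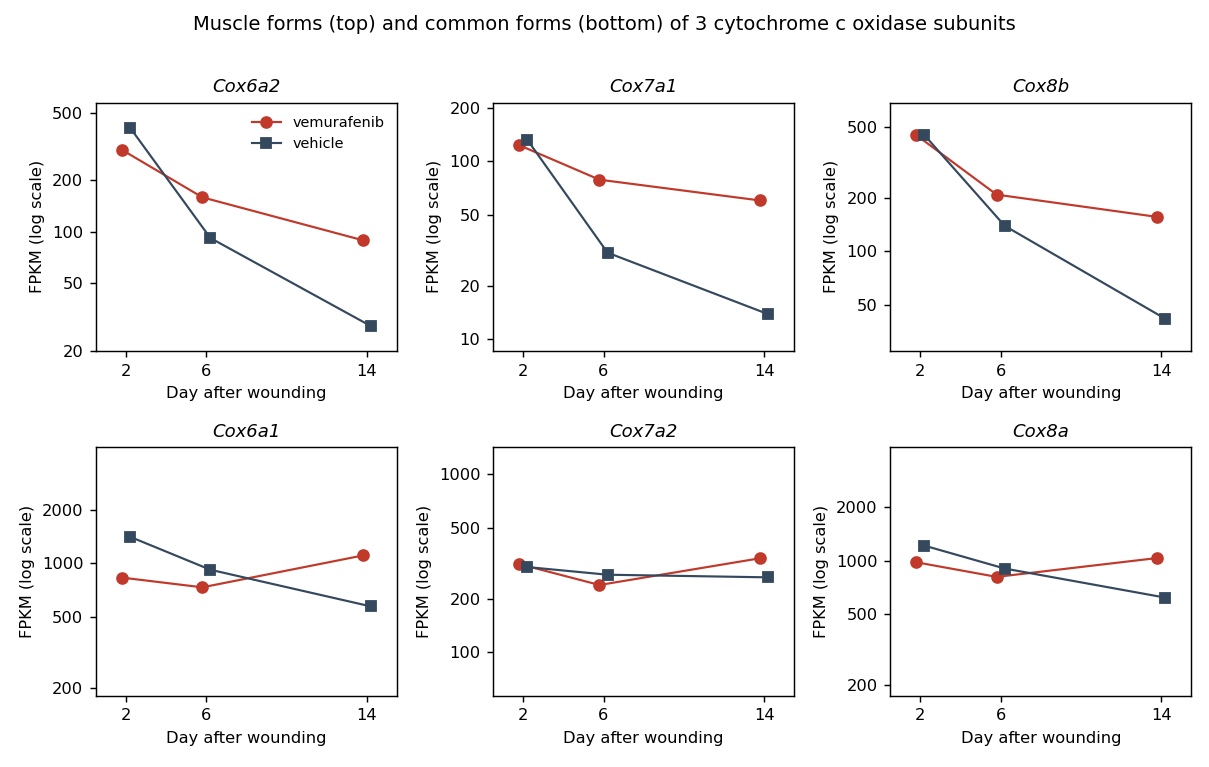
FPKM (log scale) against the day after wounding for the muscle forms Cox6a2, Cox7a1 and Cox8b (top) and their common partners Cox6a1, Cox7a2 and Cox8a (bottom). Each point is 1 library, with vemurafenib as circles and vehicle as squares. On day 14 the muscle forms were 3.18, 4.34 and 3.74-fold higher with vemurafenib.

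On day 2 the ratios of vemurafenib to vehicle were 0.741 for Cox6a2, 0.931 for Cox7a1 and 0.999 for Cox8b. On day 6 they were 1.73, 2.57 and 1.50, and on day 14 3.18, 4.34 and 3.74 in the same order. The median log2 ratio of the muscle forms was -0.10 on day 2 (0.086 with the summed FPKM of the libraries set equal), 0.79 on day 6 and 1.90 on day 14, compared with 0.00, 0.04 and -0.12 over the 13392 genes that averaged 1 FPKM or more. The arms lay closest on day 2 and furthest apart on day 14 for each of the 3 genes.

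The common partners differed less between the arms on days 6 and 14. Cox6a1 had 831 FPKM with vemurafenib and 1411 FPKM with vehicle on day 2, 733 with vemurafenib and 920.4 with vehicle on day 6, and 1108 with vemurafenib and 572 with vehicle on day 14. Cox8a had 983 FPKM with vemurafenib and 1219 FPKM with vehicle on day 2, 813 with vemurafenib and 906 with vehicle on day 6, and 1038 with vemurafenib and 621 with vehicle on day 14. Cox7a2 had 313 FPKM with vemurafenib and 301 FPKM with vehicle on day 2, 238 with vemurafenib and 272 with vehicle on day 6, and 337 with vemurafenib and 263 with vehicle on day 14. None of the 3 differed 2-fold between the arms on any day, and all 3 were higher with vemurafenib on day 14, by 1.94, 1.67 and 1.28-fold.

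Since FPKM are per length, the share of a pair taken by its muscle form could be followed within a library, where it does not depend on scaling between libraries. For Cox7a1 of Cox7a1 and Cox7a2 this share was 28.3% with vemurafenib and 30.6% with vehicle on day 2, 24.9% with vemurafenib and 10.1% with vehicle on day 6, and 15.2% with vemurafenib and 4.99% with vehicle on day 14. Cox8b took 31.5% with vemurafenib and 27.0% with vehicle of its pair on day 2, 20.4% with vemurafenib and 13.3% with vehicle on day 6, and 13.1% with vemurafenib and 6.29% with vehicle on day 14. Cox6a2 took 26.7% with vemurafenib and 22.4% with vehicle on day 2, 17.9% with vemurafenib and 9.08% with vehicle on day 6, and 7.45% with vemurafenib and 4.66% with vehicle on day 14. In every pair the muscle form was the smaller one in all 6 libraries, its share was smaller on each later day in both arms, and on days 6 and 14 the share was larger with vemurafenib.

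The same course was seen in the skeletal muscle markers. Their summed FPKM was 30323 with vemurafenib and 30650.0 with vehicle on day 2, 14116 with vemurafenib and 6753 with vehicle on day 6, and 7719.9 with vemurafenib and 2453 with vehicle on day 14. The median log2 ratio of the 17 markers past the filter was 0.06, 0.98 and 1.67 on days 2, 6 and 14. Of the 17, 16 were higher with vemurafenib on day 14, 12 of them at least 2-fold, where 42.4% of all genes were higher and 3.64% at least 2-fold higher. Ckm, the creatine kinase of muscle, had 2269.9 FPKM with vemurafenib and 2191 FPKM with vehicle on day 2, 1003 with vemurafenib and 365 with vehicle on day 6, and 631 with vemurafenib and 131 with vehicle on day 14, and Myh7, the slow myosin, was below 0.1 FPKM in every library. Whether the muscle forms differed apart from the amount of muscle RNA in the libraries was not tested. The Ucp1 values given above were near 0, and the other genes listed as brown fat markers that passed the filter (Cidea, Dio2 and Elovl3) had median log2 ratios of 0.68, -0.79 and -0.08 on the 3 days. Whether their levels came from brown fat was not tested.

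The gene profiles closest to the mean profile of the 3 muscle forms were sought over all genes that averaged 1 FPKM or more, by the mean absolute difference of centred log2 values over the 6 libraries. The nearest 5 were Nctc1 (0.10), a noncoding RNA gene; Atp2a1 (0.13), the calcium pump of fast muscle fibres; Rbm38 (0.14), an RNA-binding protein; Phox2a (0.15), a homeobox factor; and Tnnt3 (0.15), the troponin T of fast fibres. Atp2a1, for example, had 953 FPKM with vemurafenib and 960.0 FPKM with vehicle on day 2, 575 with vemurafenib and 236 with vehicle on day 6, and 284 with vemurafenib and 83.8 with vehicle on day 14. Atp2a1 and Tnnt3 are among the muscle markers above, and Nctc1 and Phox2a had low levels, with 1.69 FPKM with vemurafenib and 0.408 FPKM with vehicle for Nctc1 and 1.97 FPKM with vemurafenib and 0.425 FPKM with vehicle for Phox2a on day 14.

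Over both arms, the muscle forms fell over the time course. In a limma fit across all genes with the arm as a block, the log2 difference of day 14 against day 2 was -2.81 for Cox6a2 (SE 0.50, adjusted p = 0.0116), -2.48 for Cox8b (SE 0.48, adjusted p = 0.0154) and -2.14 for Cox7a1 (SE 0.52, adjusted p = 0.0339). For the common partners the differences were -0.44 for Cox6a1, -0.45 for Cox8a and -0.04 for Cox7a2, none past an adjusted p of 0.05. In all, 4 respiratory chain genes were called lower on day 14 than on day 2 and 0 were called higher. Of all genes, 10.2% were called lower and 7.71% higher. The unadjusted limma p was under 0.05 for 14 of the 82, and for 4209 of all 13392 genes. Without the filter on the mean, the adjusted p was 0.0703 for Ndufa4l2, 0.170 for Cox6a2, 0.179 for Cox8b and 0.242 for Cox7a1, and without the arm block that of Cox7a1 was 0.0884. The fit had 2 residual degrees of freedom and took each library as a separate sample, which the labels do not state in terms of mice.

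The steps between days gave fewer calls. From day 2 to day 6, 0 of the 82 genes were called in either direction, compared with 2.93% of all genes called higher and 1.81% called lower. The unadjusted limma p was under 0.05 for 5 of the 82, and for 2305 of all 13392 genes. The smallest adjusted p of the 82 was 0.172, for Cox6a2 with a difference of -1.54 ± 0.50 (SE). From day 6 to day 14, 1 of the 82 was called, lower, with 1.84% of all genes called higher and 1.8% lower. For a vemurafenib effect common to the 3 days, with day as a block, 0 of the 82 were called in the limma fit, and the smallest adjusted p was 0.999965. Over all 13392 genes that fit called 0 higher and 1 (0.00747%) lower. A difference between the arms that changed with the day counted as spread in that fit, which had 2 residual degrees of freedom. The lack of calls therefore does not show that the arms were alike on any day. The unadjusted p of that limma fit was under 0.05 for 2 of the 82, and for 303 of all 13392 genes. The 2 were Cox7a1, with a log2 difference of 1.13 ± 0.42 (SE), and Ndufs5, an accessory subunit of complex I, with -0.64 ± 0.26.

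The gene called lower from day 6 to day 14 was Ndufa4l2 (mm9 chr10:126951995-126954208, plus strand), a paralogue of Ndufa4 that is known as a target of hypoxia-inducible factor. Ndufa4l2 had 147 FPKM with vemurafenib and 179 FPKM with vehicle on day 2, 168 with vemurafenib and 181 with vehicle on day 6, and 26.8 with vemurafenib and 30.3 with vehicle on day 14. Both day 14 libraries were far below the 4 earlier ones, and the arms stayed close on each day. In the limma fits it fell by 2.61 on the log2 scale from day 6 to day 14 (SE 0.28, adjusted p = 0.00603) and by 2.51 from day 2 to day 14 (SE 0.28, adjusted p = 0.00205). Its paralogue Ndufa4, counted here with the common forms of complex IV, had 984 FPKM with vemurafenib and 813 FPKM with vehicle on day 2, 629 with vemurafenib and 768 with vehicle on day 6, and 685 with vemurafenib and 514 with vehicle on day 14, so that Ndufa4l2 made up 21.1% of the pair with vemurafenib and 19.1% with vehicle on day 6, and 3.76% and 5.56% on day 14.

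Of the remaining tissue forms, Cox4i2, which replaces Cox4i1 mainly in lung and in smooth muscle of vessels, had 3.13 FPKM with vemurafenib and 7.97 FPKM with vehicle on day 2, 9.85 with vemurafenib and 12.0 with vehicle on day 6, and 15.6 with vemurafenib and 10.6 with vehicle on day 14. It was lowest in the vemurafenib library of day 2 and lay above its day 2 level on day 14 in both arms, but the limma difference between day 14 and day 2 was 1.34 ± 0.45 (SE, adjusted p = 0.0913) and was not called. Cox6b2, a form known from testis, had 6.45 FPKM with vemurafenib and 8.37 FPKM with vehicle on day 2, 13.0 with vemurafenib and 17.7 with vehicle on day 6, and 13.9 with vemurafenib and 6.94 with vehicle on day 14. Both stayed below 2% of their pair in every library. Cox8c, another testis form, was listed at 0 on days 2 and 6 in both arms and had 0.239 FPKM with vemurafenib and 0.335 FPKM with vehicle on day 14, and Cox7b2 was listed at 0 in all 6 libraries.

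**Figure D2:**
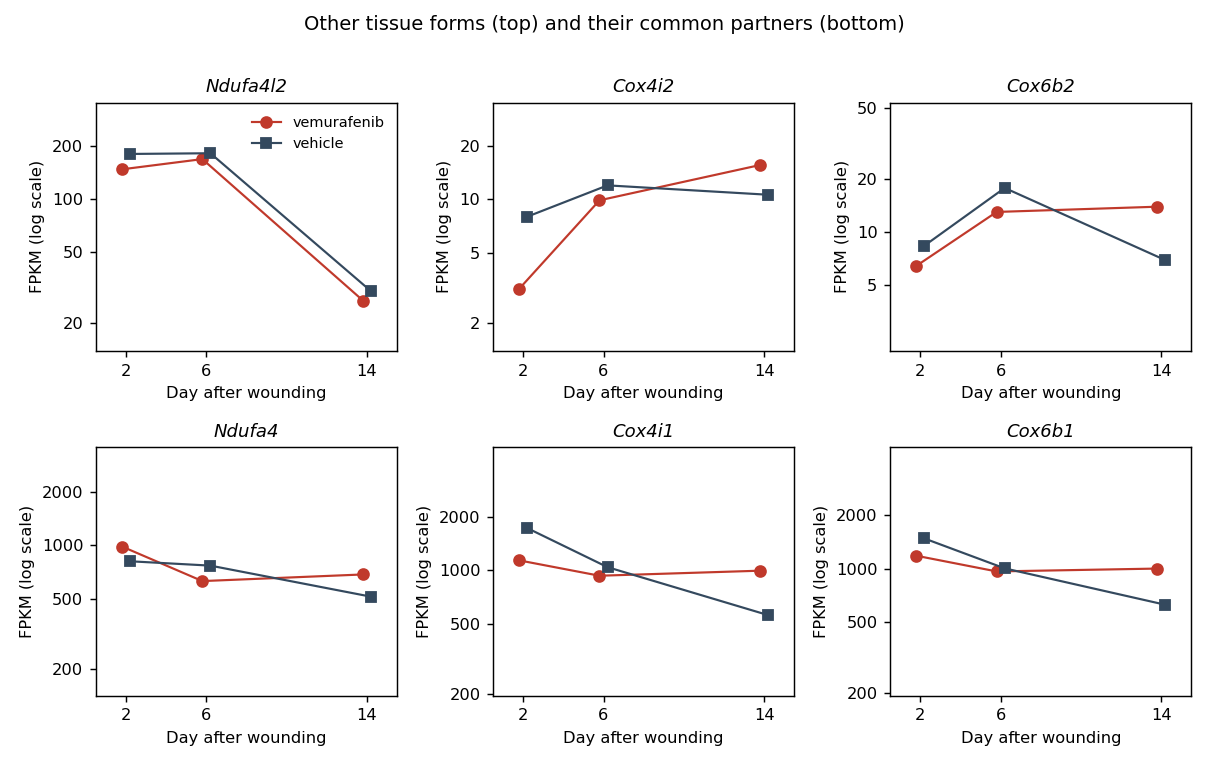
FPKM (log scale) against the day after wounding for Ndufa4l2, Cox4i2 and Cox6b2 (top) and their common partners Ndufa4, Cox4i1 and Cox6b1 (bottom), 1 library per point, vemurafenib as circles and vehicle as squares. On day 14 Ndufa4l2 had 26.8 FPKM with vemurafenib and 30.3 FPKM with vehicle, far below days 2 and 6 in both arms, and Cox4i2 was lowest on day 2 with vemurafenib, at 3.13 FPKM.

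The 73 common forms showed little difference between the arms on the first 2 days of sampling and lay higher with vemurafenib on the last. Their median log2 ratio of vemurafenib to vehicle was -0.09 on day 2, with 33 genes higher and 40 lower, and -0.03 on day 6, with 29 higher and 44 lower. On day 14 it was 0.68, with 68 higher and 5 lower, compared with -0.12 over all 13392 genes. The middle 50% of the common forms lay between 0.38 and 0.81 on day 14, and that of all genes between -0.54 and 0.30. The signs on days 2 and 6 turned with the scaling: with the summed FPKM of the libraries set equal, the medians were 0.10 (47 higher, 26 lower) and 0.34 (73 higher, 0 lower), while that of day 14 was 0.55 (61 higher, 12 lower). The same scaling moved the median of all genes to 0.18, 0.40 and -0.25 on days 2, 6 and 14. A single row, Mir6236, held 13.9% of the summed FPKM of the vehicle library of day 6. The highest row of the vemurafenib library of that day, Rplp1, held 1.08%. When the 100 most abundant genes were left out of the total, the day 6 median of all genes was 0.08.

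Markers of other cell types also differed between these day 14 libraries. The 5 differentiated keratinocyte markers past the filter summed to 1125 FPKM with vemurafenib and 1965 FPKM with vehicle, with a median log2 ratio of -1.30 and 0 of 5 higher. The 6 fibroblast markers summed to 2409.7 FPKM with vemurafenib and 3926 FPKM with vehicle, with a median of -0.80 and 0 of 6 higher. Of the 9 adipocyte markers 8 were higher with vemurafenib (median 0.36), as were 4 of 6 basal keratinocyte markers (median 0.29) and 3 of 6 macrophage markers (median 0.13). The median transcript length was 5455.5 bases for the fibroblast markers and 2094 bases for the differentiated keratinocyte markers. It was 1720 bases for the adipocyte, 3778 for the basal keratinocyte and 2408.5 for the macrophage markers. Over all genes, the day 14 median was -0.51 for transcripts of at least 5001 bases. It was -0.29 for those of 3001 to 5000 bases and -0.07 for those of 2001 to 3000 bases. The part of these cell types, and of muscle, in the ratios of the common forms was not tested.

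**Figure D3:**
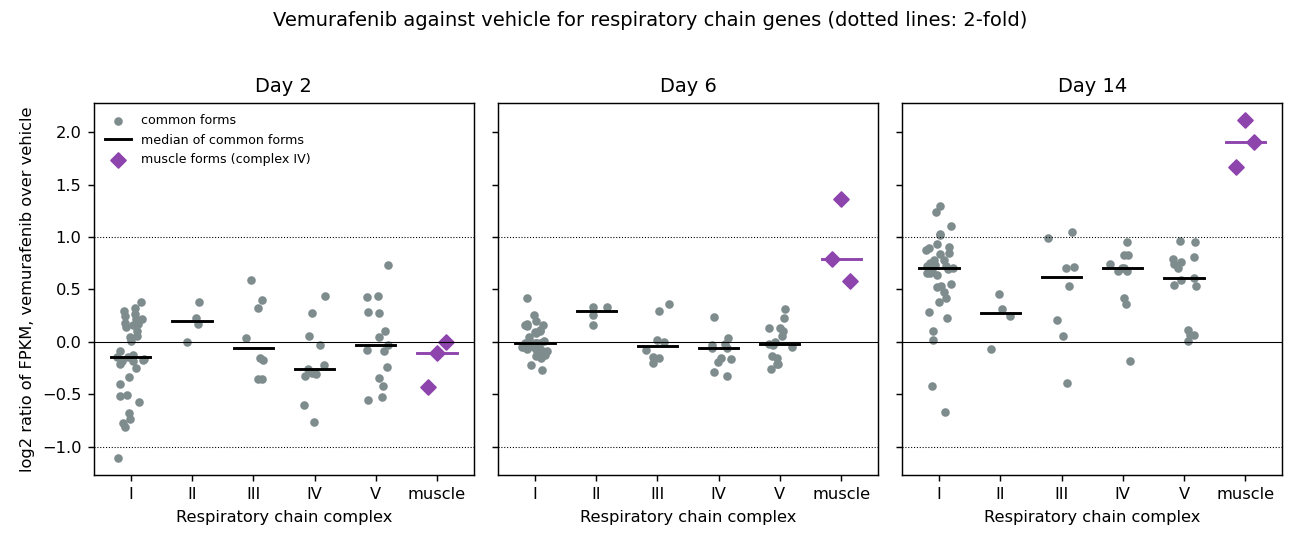
Log2 ratio of vemurafenib to vehicle for each of the 73 common forms, by complex, and for the 3 muscle forms, on days 2, 6 and 14; bars are medians and dotted lines mark 2-fold. On days 2 and 6 the medians of complexes I, III, IV and V were between -0.26 and -0.02 and those of complex II were 0.20 and 0.30, while on day 14 the complex medians were between 0.28 and 0.70, and the muscle forms had a median of 1.90.

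On day 14, 9 of the 82 respiratory chain genes were at least 2-fold higher with vemurafenib and 0 were at least 2-fold lower, where 3.64% of all genes were higher and 7.66% lower by that measure. Beside the 3 muscle forms these were 6 common forms, 5 of complex I and 1 of complex III. Of the 42 common forms with transcripts of up to 1000 bases, 3 passed 2-fold upward with vemurafenib and 0 downward. Among all 863 genes of that length the counts were 101 and 70, so that the short common forms showed no excess of upward calls. Above 1000 bases the counts were 3 and 0 for the 31 common forms, and 213 and 856 for all 11230 genes. Ndufb7, an accessory subunit, had 439 FPKM with vemurafenib and 772 FPKM with vehicle on day 2, 309 with vemurafenib and 328 with vehicle on day 6, and 347 with vemurafenib and 141 with vehicle on day 14. Ndufs7, a core subunit that carries the last iron-sulphur cluster before ubiquinone, had 353 FPKM with vemurafenib and 503 FPKM with vehicle on day 2, 228 with vemurafenib and 230.1 with vehicle on day 6, and 292 with vemurafenib and 124 with vehicle on day 14. Both had their highest value in the vehicle library of day 2 and their lowest in that of day 14, with the other 4 libraries in between.

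The remaining 4 common forms past 2-fold on day 14 were Ndufa2, Ndufa13 and Ndufv3 of complex I and Uqcrq of complex III, with log2 ratios of 1.10, 1.03, 1.02 and 1.05. The lowest ratios of that day belonged to Ndufs5, with 27.4 FPKM with vemurafenib and 43.7 FPKM with vehicle (log2 -0.67), Ndufs1 (-0.43) and Uqcrc2 (-0.40). Ndufs1 and Uqcrc2 had their highest value of all 6 libraries in vehicle on day 14, opposite to most of the common forms. Cox7b and Sdha, at -0.18 and -0.07, were the other common forms below 0.

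By complex, the day 14 medians were 0.70 for complex I, 0.28 for complex II, 0.62 for complex III, 0.70 for complex IV and 0.61 for complex V. All 15 subunits of the ATP synthase were above 0 on that day, or 11 of 15 with the summed FPKM of the libraries set equal. They ranged from 0.00 for the catalytic subunit Atp5b to 0.96 for the small stalk subunit Atp5e. Atp5e had 1024 FPKM with vemurafenib and 1368 FPKM with vehicle on day 2, 719.7 with vemurafenib and 804 with vehicle on day 6, and 1278 with vemurafenib and 655 with vehicle on day 14. Atp5b had 697 FPKM with vemurafenib and 573 FPKM with vehicle on day 2, 615 with vemurafenib and 591 with vehicle on day 6, and 663 with vemurafenib and 661 with vehicle on day 14. The catalytic subunit, with a transcript of 1916 bases, was thus nearly level between the arms on days 6 and 14. The small subunit, with 421 bases, was 1.95-fold higher with vemurafenib on day 14. The day 14 median over all genes was 0.43 for transcripts of up to 500 bases and 0.15 for those of 1501 to 2000 bases. The 4 members of complex II had ratios above 0 on days 2 and 6, with medians of 0.20 and 0.30, although Sdhb was at 0.0019 on day 2. With the summed FPKM set equal, every common form of every complex was above 0 on day 6, as were 83.7% of all genes. None of the complex II genes reached 2-fold between the arms on any day.

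On day 2, 0 of the 82 genes were at least 2-fold higher with vemurafenib and 2 were at least 2-fold lower, with 1.43% of all genes higher and 3.26% lower. They were Cox4i2 (log2 -1.32) and Ndufs5, which had 26.5 FPKM with vemurafenib and 57.2 FPKM with vehicle on day 2, 27.5 with vemurafenib and 30.3 with vehicle on day 6, and 27.4 with vemurafenib and 43.7 with vehicle on day 14. Ndufs5 had its highest value in the vehicle library of day 2 and was below vehicle on each day. The next lowest was Ndufb7 at -0.81, and the highest ratios were those of Atp5j (0.73), a coupling subunit of the ATP synthase, Uqcrfs1 (0.59), the Rieske iron-sulphur protein of complex III, and Cox7b (0.44). Atp5j had 429 FPKM with vemurafenib and 258 FPKM with vehicle on that day.

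On day 6 the muscle form Cox7a1 was the 1 gene of the 82 that was 2-fold or more higher with vemurafenib, and 0 were 2-fold or more lower, compared with 5.29% and 5.03% of all genes. The common forms lay within a narrow span on that day, from -0.33 (Cox6a1) to 0.42 (Ndufs1). Cox6b2 had the lowest ratio of all members, -0.45, followed by Cox6a1 and Ndufa4 (-0.29).

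Read along time, the common forms parted between the arms after day 6. The median log2 change of these 73 genes from day 2 to day 6 was -0.33 with vemurafenib and -0.42 with vehicle. From day 6 to day 14 it was 0.12 with vemurafenib, with 56 of 73 higher, and -0.54 with vehicle, with 61 of 73 lower. Over the whole interval the median change was -0.19 with vemurafenib and -0.93 with vehicle, compared with 0.01 and 0.13 over all genes. These values share libraries with the ratios between the arms and are no separate evidence of them.

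At least 2-fold lower on day 14 than on day 2 were 4 of the 82 genes with vemurafenib (14.3% of all genes) and 36 with vehicle (19.4% of all genes). The 4 were the 3 muscle forms and Ndufa4l2, and 32 of the 36 were common forms, 17 of them of complex I. Among all 863 genes with transcripts of up to 1000 bases, 196 were at least 2-fold lower with vemurafenib and 381 with vehicle. Of the 42 common forms of that length, 0 were so with vemurafenib and 22 with vehicle. In the vemurafenib arm 14 of the 73 common forms (19.2%) were lower on each later day, beside 21.4% of all genes, and in the vehicle arm 57 (78.1%), beside 27.9% of all genes. The vehicle library of day 14 was the lowest of the 6 for 58 of the 73 common forms, and for 24.1% of all genes. Sdhd, a membrane anchor of complex II, was lower on each later day in both arms, with 206 FPKM with vemurafenib and 183 FPKM with vehicle on day 2, 161 with vemurafenib and 135 with vehicle on day 6, and 110.0 with vemurafenib and 88.6 with vehicle on day 14, and its limma difference between day 14 and day 2 was -0.97 ± 0.29 (SE, adjusted p = 0.0635).

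The day 14 difference went together with transcript length over the whole table. Respiratory chain transcripts are short, with a median length of 868 bases compared with 2856 bases over the 12093 genes that had a length (the longest protein-coding transcript in the GENCODE annotation of NCBIM37). On day 14 the median over all genes was 0.43 for transcripts of up to 500 bases, 0.31 for those of 1001 to 1500 bases, -0.29 for those of 3001 to 5000 bases and -0.51 for longer ones. Over all genes, Spearman's rho of the ratio with length was -0.45 on day 14 (n = 12093), 0.15 on day 6 and 0.01 on day 2, all of them descriptions across genes of the same libraries. Over the 73 common forms rho was 0.43 on day 2, 0.51 on day 6 and -0.43 on day 14, so that longer members tended to have the higher ratios on days 2 and 6 and the lower ones on day 14.

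From day 6 to day 14 the median change was 0.10 for genes of up to 1000 bases and -0.03 for longer genes in the vemurafenib arm, against -0.64 and 0.10 in the vehicle arm. Within genes of up to 1000 bases, the median ratio on day 14 was 0.72 for the 42 common forms and 0.49 for all 863 genes. Above 1000 bases it was 0.38 for the 31 common forms and -0.17 for all 11230 genes. The longest annotated transcript need not be the one expressed, so that a gene can stand in too long a class. The 3 common forms of 3001 to 5000 bases had a median of 0.72, and the 6 of 2001 to 3000 bases had 0.08. Whether such lengths account for the ratios of the longer common forms was not tested. After the median of genes of like length was set equal between the libraries, in 20 length bins, the median of the common forms on day 14 was 0.25, with 59 higher and 14 lower, and that of the muscle forms was 1.45. The length adjustment was chosen after seeing the data and used the same longest annotated transcripts. It left 5 respiratory chain genes at least 2-fold higher and 1, Ndufs5, at least 2-fold lower on that day, with 2.41% of all 12093 genes higher and 5.4% lower.

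**Figure D4:**
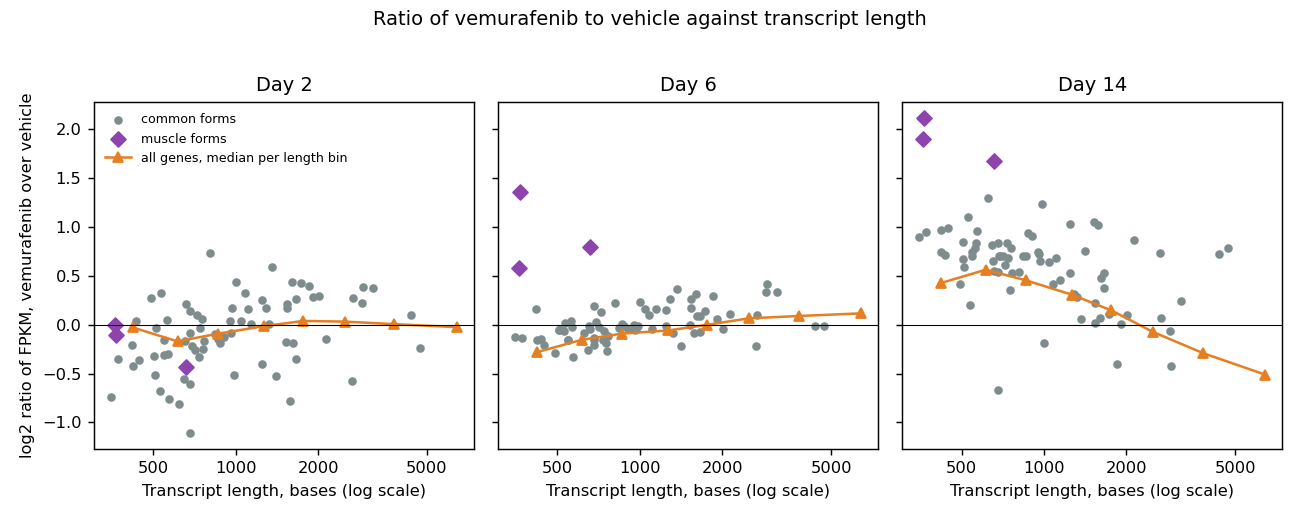
Log2 ratio of vemurafenib to vehicle against transcript length in bases (log scale) for the common forms (circles) and muscle forms (diamonds) on days 2, 6 and 14; triangles joined by a line are the medians of all genes in 8 length bins. On day 14 the line runs down to -0.51 for the longest transcripts, most circles lie above it, and the 3 diamonds lie between 1.67 and 2.12.

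Genes that serve the chain without encoding its subunits were read in the same way. Among 38 assembly factors, proteins that build the complexes, the median log2 ratio on day 14 was 0.20, from -0.59 for Cox15, which makes haem A, to 1.13 for Sco2, a copper chaperone. Both extremes were low on day 14. Cox15 had 2.87 FPKM with vemurafenib and 4.38 FPKM with vehicle, and Sco2 had 2.79 and 1.22. Cox14 had 162 FPKM with vemurafenib and 229.9 FPKM with vehicle on day 2, 126 with vemurafenib and 143 with vehicle on day 6, and 135 with vemurafenib and 66.6 with vehicle on day 14. Over 17 genes of the citric acid cycle and pyruvate dehydrogenase the day 14 median was -0.14, with Dld at -0.57 and Mdh2 at 0.49. The median transcript length was 1948 bases for the assembly factors and 2506 for the citric acid cycle genes.

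The 76 mitochondrial ribosomal protein genes, with a median length of 1164 bases, had a median of 0.09 on day 2, -0.07 on day 6 and 0.41 on day 14, from -0.31 for Mrpl3 to 1.01 for Mrpl12 on the last day. Among 21 genes of electron carriers, ubiquinone synthesis and energy transfer, whose median on day 14 was 0.12, Ckmt2 stood highest. Ckmt2, the mitochondrial creatine kinase of striated muscle, had 58.4 FPKM with vemurafenib and 36.9 FPKM with vehicle on day 2, 47.4 with vemurafenib and 12.4 with vehicle on day 6, and 32.9 with vemurafenib and 8.60 with vehicle on day 14, a course like that of the muscle forms. Pdss1, which makes the tail of ubiquinone, was lowest at -0.92.

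Regulators of mitochondrial gene expression (14 genes past the filter) had medians of 0.08, 0.00 and -0.03 on days 2, 6 and 14. Gabpa, which binds the ETS motif shown above, had 4.76 FPKM with vemurafenib and 4.56 FPKM with vehicle on day 2, 4.12 with vemurafenib and 3.03 with vehicle on day 6, and 3.78 with vemurafenib and 8.46 with vehicle on day 14. Yy1 had a log2 ratio of -0.60 on day 14. Nrf1 was nearly level on that day, with 8.83 FPKM with vemurafenib and 8.95 FPKM with vehicle (log2 -0.02), and Gabpb1 had a log2 ratio of 0.10. On that day 5 of the 14 were higher and 9 lower with vemurafenib, and Ppargc1b, a coactivator, Polrmt, the mitochondrial RNA polymerase, and Esrra, an orphan nuclear receptor, stood highest at 0.58, 0.45 and 0.37. Ppargc1b was near the filter, with 1.33 FPKM with vemurafenib and 0.859 FPKM with vehicle on day 14. Ppargc1a was below 1 FPKM in every library. The median transcript length of the list was 3656 bases.

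The related genes differed little between the arms. Cox7a2l, which helps complexes III and IV join into supercomplexes, had 208 FPKM with vemurafenib and 217 FPKM with vehicle on day 2, 218 with vemurafenib and 258 with vehicle on day 6, and 275 with vemurafenib and 225 with vehicle on day 14. Atp5s and Atp5sl, named for the coupling factor of the ATP synthase, were low, with ranges of 2.72 to 3.83 and 6.17 to 7.74 FPKM over the 6 libraries. Many small subunits of the chain have processed pseudogenes, to which the reads of the expressed gene can also map, so that levels of single subunits are uncertain to the extent that the multi-read correction did not assign them.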

How the data were processed

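RNA of 6 mouse skin libraries, 1 for each arm (vemurafenib or vehicle) on days 2, 6 and 14, was analysed from the deposited table of 23940 genes. TopHat was used by the authors for alignment to mm9, followed by cuffquant with its fragment bias, multi-read and compatible-hits options and by cuffnorm; TopHat2 and Cuffdiff also appear in the submitters' processing notes. The authors deposited FPKM, without counts. Each column was used as 1 library, and 27 rows with symbols turned into dates were left out.

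Log2 ratios were computed from FPKM + 0.1, which understates the changes of low genes, for the 13392 genes that averaged 1 FPKM or more, and called at 2-fold. With 1 library per arm and day no test was made between the arms on a day. The effect of vemurafenib common to the 3 days (day as a block) and the contrasts of days (arm as a block) were fitted with limma 3.58.1 in R 4.3.3 with a mean-variance trend, and p-values were adjusted by the Benjamini-Hochberg method over all genes and called under 0.05; the fit was tested on simulated data. The p-values measure the spread between these libraries only, which may be technical.

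Genes named were the tissue forms and their partners, the highest and lowest of each complex by mean FPKM, the 3 highest and 3 lowest in each comparison, those called by limma, the extremes of the other lists and the 5 nearest profiles. The text names a selection of these. Atp5b, Atp5e, Yy1, Gabpa, Nrf1, Gabpb1, Esrra, Polrmt, Cox14 and the 2-fold genes of day 14 beyond the first 3 were added after their values were seen. Members, lists and rules were chosen with earlier results of these data known. Transcript lengths and mm9 coordinates are from GENCODE for NCBIM37, and promoter windows from RefSeq (GRCm38.p6). Python 3.11.15 with pandas 2.3.3 and numpy 2.4.6 was used for the rest. Alternatives were 2 other pseudocounts, 2 other filters, 4 other scalings, fits without a block or a day, and, added after seeing the data, an adjustment for transcript length.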

Additional observations from a re-analysis of the deposited data

Results flagged for a closer look

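The following 5 differences between days or arms were flagged because the medians compared had opposite signs and lay well apart. None of them could be tested with 1 library per arm and day. For the common forms, the median log2 ratio of vemurafenib to vehicle was 0.77 higher on day 14 than on day 2 and 0.70 higher on day 14 than on day 6. Their median log2 change from day 6 to day 14 was 0.66 higher with vemurafenib than with vehicle, which restates the same 4 libraries. For the muscle forms, the median log2 ratio was 0.90 higher on day 6 than on day 2, and 2.01 higher on day 14 than on day 2. The sign of the common forms' medians on days 2 and 6 depends on the scaling of the libraries, as does that of the muscle forms' median on day 2.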

How the results depend on the processing

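With the summed FPKM set equal, the day 2 medians were 0.10 (common forms) and 0.086 (muscle forms) with 1 respiratory chain gene at least 2-fold lower (2.14% of all genes), those of day 6 were 0.34 and 1.16 with 2 genes at least 2-fold higher (10.8% of all genes), and those of day 14 were 0.55 and 1.77 with 5 genes at least 2-fold higher (2.64%). Leaving the 100 most abundant genes out of that total gave 0.041 and 0.025 on day 2 with 1 gene lower (2.44%), and 1 gene, Cox4i2, called higher on day 14 than on day 2 by limma (adjusted p = 0.0460), with 1318 of all genes called higher. On day 14, upper quartile scaling gave 0.80 and 2.03 with 17 genes at least 2-fold higher (5.25% of all genes), and setting the median of all genes to 0 gave 0.79 and 2.02 with 17 genes higher (5.23%). The length adjustment gave 0.11 and 0.998 on day 6, and 0.25 and 1.45 on day 14 with 5 genes higher (2.41%) and 1 lower (5.4%), and limma then called 1 gene, Cox4i2, higher on day 14 than on day 2 (adjusted p = 0.0189) and 5 lower, with 1125 and 1578 of all genes. Without a filter on the mean, limma called 0 respiratory chain genes lower on day 14 than on day 6 (Ndufa4l2, adjusted p = 0.0758; 22 of all genes) or on day 2 (5 of all genes). The vemurafenib effect on Cox4i2 turned to 0.14 without day 2. The causes were not tested. Without the filter, 23913 genes rather than 13392 entered both the fit and the adjustment.

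The day 14 median of both groups of forms was above 0 under each scaling, pseudocount and filter listed. The unknown depth, the 1 library per arm and day and the columns in the form of averages limit every value here. Pairing by replicate number could not be had with 1 library in each group; the arms were paired by day, and the days by arm, through the blocks of the limma fits.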
